A study of Saccharomyces cerevisiae with 30 samples.

Results

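The *pol1-1A* strain of *Saccharomyces cerevisiae* was compared with the wild type strain in the HU block, the arrest in which replication forks are held before recovery is followed. The comparison rests on the 2 *pol1-1A* and the 2 wild type libraries of this arrest, out of 30 libraries in all, chosen by strain and time point as the labels give them. Both strains were synchronised in G1 phase with alpha factor in rich medium, released into 200 mM hydroxyurea (HU) and collected while HU was still present. The *pol1-1A* allele changes 1 threonine of Pol1 to alanine, and the wild type carries the unchanged protein. The remaining libraries came from the *mrc1-AQ cdc45-2A* double mutant, from the triple mutant that adds *pol1-1A* to it, from all strains at 20 and 40 minutes after removal of HU, and from 6 asynchronous wild type spike-in preparations. The quantities described are the signal over all windows of the genome, the height of the peaks at origins, the signal at the origin midpoints, and the level between origins, each also by chromosome.

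Pol1 is the catalytic subunit of DNA polymerase alpha, which works with primase to lay down the short RNA-DNA primers that begin the leading strand at an origin and every Okazaki fragment after it. HU inhibits ribonucleotide reductase, so that nucleotides run short and forks slow down close to the origins they left. The checkpoint kinase Rad53 then protects these forks and keeps later origins from firing, and the threonine altered in *pol1-1A* lies in the part of Pol1 that the kinase binds. TrAEL-seq tags 3′ DNA ends and marks mostly the leading strand of a fork. A fired origin whose forks have halted therefore appears as a pair of peaks with a trough at the origin itself, and the stretches between origins hold little signal.

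The HU block libraries of replicate 1 were ligated to different adaptors and pooled (pool 1), as were those of replicate 2 (pool 4). The *pol1-1A* libraries held 4380849 and 5578332 mapped reads, and the wild type libraries 2974768 and 7214255. Signal was read as reads per 1000000 mapped reads (RPM) in windows of 2000 bp. Of the mapped reads, 87.6% and 70.9% lay inside the windows in the *pol1-1A* libraries, against 86.0% and 85.1% in the wild type libraries. The authors had filtered out regions that are not single copy, among them rDNA, mtDNA and sub-telomeric regions. Where the remaining reads lay was not examined. Replicate 2 of *pol1-1A* had the lowest share inside the windows of the 24 libraries other than spike-ins. It stood apart from the other 3 HU block libraries in most quantities below. Values are therefore given for each library, and results are given with and without it where it decides them.

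Over the whole genome the 2 replicates moved in opposite directions. The median window held 86.1 RPM and 18.6 RPM in the *pol1-1A* libraries, against 59.2 RPM and 37.0 RPM in the wild type libraries. The *pol1-1A* libraries were thus the highest and the lowest of the 4, and the wild type libraries lay between them. Differences in window signal, peak height and level between origins are on the log2(RPM + 1) scale unless another is named. On it the *pol1-1A* median was 0.53 higher in replicate 1 and 0.95 lower in replicate 2 (exact permutation test, two-sided, p = 1). Of 5933 non-overlapping windows with a read, 4395 (74.1%) were higher in *pol1-1A* in replicate 1 and lower in replicate 2, while 225 (3.79%) were higher in both and 983 (16.6%) lower in both. Limma's moderated test called 0 of 5933 windows (0%) at an adjusted p under 0.05, with 39 windows (0.657%) at an unadjusted p under 0.05. EdgeR, run with its quasi-likelihood model on counts recovered from the signal, also called 0, with 68 at an unadjusted p under 0.05, and limma with the pool as a replicate block called 0, with 205. Without replicate 1 of *pol1-1A*, limma called 2397 windows, 2382 of them lower in *pol1-1A*. Without replicate 2 it called 0, with 1182 at an unadjusted p under 0.05, of which 1091 were higher in *pol1-1A*, and the median change was 0.56.

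Libraries of the same pool resembled each other more than libraries of the same strain. Across windows, which are not independent replicates, the log2 signal of *pol1-1A* and wild type correlated with Pearson's r of 0.977 in pool 1 and 0.966 in pool 4. It correlated with r of 0.823 between the *pol1-1A* replicates and 0.933 between the wild type replicates. The change from wild type to *pol1-1A* in replicate 1 correlated with that in replicate 2 with r of -0.538.

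The upper end of the distribution behaved differently from its middle. The window at percentile 99 held 996 RPM and 1270 RPM in the *pol1-1A* libraries, against 1241 RPM and 1486 RPM in the wild type libraries. It was lower in *pol1-1A* within each pool, although *pol1-1A* of pool 4 lay above wild type of pool 1. Per 1000000 reads inside the windows it was 1136 and 1792 in the *pol1-1A* libraries, against 1443 and 1745 in the wild type libraries, and the direction in pool 4 turned. The window at percentile 10 held 27.8 RPM and 8.60 RPM in the *pol1-1A* libraries, against 23.2 RPM and 23.98 RPM in the wild type libraries. At this low end the value of *pol1-1A* replicate 2 was the only one of the 4 below 20 RPM.

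Origins were located as midpoints of neighbouring peaks in the mean of all 4 libraries, so that neither strain alone placed them, and 148 were found. The height of an origin was taken as the highest window within 5 kb of its midpoint. The median height was 818 RPM and 1035 RPM in the *pol1-1A* libraries, against 998 RPM and 1148 RPM in the wild type libraries. Within each pool the *pol1-1A* peaks were the lower ones, by 0.29 in replicate 1 and by 0.15 in replicate 2, although the ranges of the strains overlapped. The mean height was 926 ± 154 RPM in *pol1-1A* and 1073 ± 106 RPM in the wild type (SD, n = 2 each; exact permutation test, two-sided, p = 0.67). The mean difference was -0.22, and it was -0.39 without replicate 2 of *pol1-1A* and -0.049 without replicate 1. The median change over all windows was -0.21, but that value came from replicates of opposite sign, at 0.40 in replicate 1 and -0.80 in replicate 2. Per 1000000 reads inside the windows, the height was 933 and 1460 in the *pol1-1A* libraries, against 1161 and 1349 in the wild type libraries, and the direction in replicate 2 turned.

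**Figure D1:**
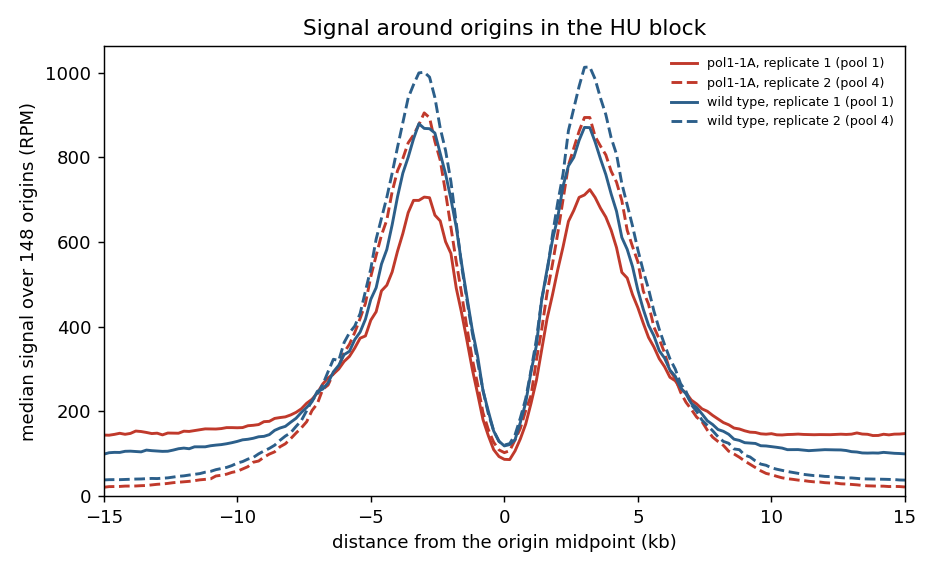
Median signal (RPM) over 148 origins against the distance from the origin midpoint (kb) in the 4 HU block libraries, *pol1-1A* in red and wild type in blue, replicate 1 as solid and replicate 2 as dashed lines. In each pool the *pol1-1A* peaks lay below those of the wild type, while 15 kb to the right the *pol1-1A* signal was the highest of the 4 in pool 1 (148 RPM) and the lowest in pool 4 (21.9 RPM).

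The fall in height was spread over most origins rather than carried by a few. Of 148 origins, 123 (83.1%) had a lower peak in *pol1-1A* in both replicates and 3 a higher peak in both, against 16.6% of all windows lower in both. At 37 origins (25.0%) both *pol1-1A* libraries lay below both wild type libraries, against 8.24% of all windows, and at 1 origin both lay above, against 0.876% of all windows. All origins of a library share its scale. When heights were scaled to the reads inside the windows only 13 origins (8.78%) were lower in both replicates, against 7.45% of all windows on that scale. Then 133 origins (89.9%) were lower in replicate 1 and higher in replicate 2, against 15.4% of all windows. Limma called 0 of 148 origins (0%), with 2 (1.35%) at an unadjusted p under 0.05. EdgeR called 0, with 2 at an unadjusted p under 0.05, and the fit with the replicate block called 0, with 13.

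The difference was more negative at the higher origins. The origins were ranked by mean height over the 4 libraries and split into 4 groups of 37. In the lowest group 17 of 37 origins were lower in *pol1-1A* in both replicates, with median differences of -0.17 in replicate 1 and 0.01 in replicate 2. In the next group 32 of 37 were lower in both. In each of the upper groups 37 of 37 were lower in both, and in the highest group the median differences were -0.34 and -0.20. Scaled to the reads inside the windows, the median differences of replicate 2 were above 0 in all 4 groups, from 0.27 in the lowest to 0.06 in the highest. The order of the origins was nearly the same in the strains, since the mean heights correlated with r of 0.997 over 148 origins that share libraries and scale.

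The highest peaks of the arrest were found at 5 origins on chromosomes II, IV and XIV. The highest lay at position 555301 of chromosome IV (R64), between *VMS1* and *TPI1*, the gene of triose phosphate isomerase. Its peak held 1492 RPM and 1703 RPM in the *pol1-1A* libraries, against 1941 RPM and 2074 RPM in the wild type libraries. Both *pol1-1A* libraries were lower than both wild type libraries, but the origin did not pass the test (limma log2 difference -0.33, SE 0.18, adjusted p = 0.42). The next were at 237601 on chromosome II, between *ECM15* and the trehalase gene *NTH2*, at 914001 on chromosome IV, between *CRF1* and the histone H2B gene *HTB1*, at 553401 on chromosome XIV, in *YNL040W*, and at 1165901 on chromosome IV, between the hexose transporter gene *HXT3* and *SVF1*. At these 4 origins the log2 differences lay between -0.25 and -0.30, and none passed the test (limma adjusted p = 0.42 at each). The origin beside *HXT3* shares a peak with that at 1159901, in *HXT6*, and both had the same height in every library.

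The largest falls among origins lower in both replicates were at 888601 on chromosome VII, between the xylulokinase gene *XKS1* and the exosome subunit gene *SKI6*, at 447601 on chromosome VIII, in the autophagy gene *ATG7*, and at 684101 on chromosome X, between *MET5*, which encodes a subunit of sulphite reductase, and *IML1*. The peak beside *XKS1* held 1260 RPM and 1408 RPM in the *pol1-1A* libraries, against 1653 RPM and 1798 RPM in the wild type libraries, a log2 difference of -0.37 (SE 0.18, limma adjusted p = 0.42). The other two differed by -0.36 and -0.35, with the same adjusted p. The 3 origins higher in *pol1-1A* in both replicates all ranked among the low ones, at 135, 144 and 147 of 148 by height. That at 622701 on chromosome XII, in *CSC1*, held 283 RPM and 238 RPM in the *pol1-1A* libraries, against 265 RPM and 199 RPM in the wild type libraries (log2 difference 0.18, SE 0.18, limma adjusted p = 0.48). The other two, at 98401 on chromosome XI in *YKL183C-A* and at 517501 on the same chromosome beside the general amino acid permease gene *GAP1*, differed by 0.13 and 0.04.

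The origins at 540301 and 613101 of chromosome X were taken as *ARS1018* and *ARS1019*, from the part of that chromosome that the study displayed, with no annotation of origins at hand. The first held 1300 RPM and 1708 RPM in the *pol1-1A* libraries, against 1502 RPM and 1992 RPM in the wild type libraries. The second held 1263 RPM and 1505 RPM in the *pol1-1A* libraries, against 1541 RPM and 1842 RPM in the wild type libraries. Both were lower in *pol1-1A* in each pool and neither passed the test (log2 differences -0.22 and -0.29, limma adjusted p = 0.44 and 0.42).

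Origin midpoints lay in annotated genes less often than the windows of the genome did, at 54 of 148 origins (36.5%) against 4376 of 5933 window centres (73.8%). This is a description of where the called origins lie, and the share was not tested.

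At the origin midpoint, in most cases a trough, the median signal per mapped reads was lower in *pol1-1A* in both replicates. Not every midpoint was a trough between the peaks of 1 origin. That at 558601 on chromosome XVI held 672 RPM and 782 RPM in the *pol1-1A* libraries, against 683 RPM and 859 RPM in the wild type libraries. That at 596101 on chromosome XII held 0 RPM in all of them. The signal in the window at the origin midpoint had a median of 84.8 RPM and 103 RPM in the *pol1-1A* libraries, against 107 RPM and 123 RPM in the wild type libraries. Both *pol1-1A* libraries were thus below both wild type libraries, with means of 93.8 ± 12.8 RPM and 115 ± 11.3 RPM (SD, n = 2 each), and the exact permutation p of 0.33, two-sided, is the smallest that 2 against 2 libraries allow. At 80 of 148 origins (54.1%) both *pol1-1A* libraries lay below both wild type libraries, at 0 both lay above, and 8.24% of all windows lay below in this way. Per 1000000 reads inside the windows the medians were 96.8 and 145 in the *pol1-1A* libraries, against 125 and 145 in the wild type libraries. On that scale the strains overlapped, and the difference in replicate 2 was 0.0021. Both *pol1-1A* libraries then lay below both wild type libraries at 50 origins (33.8%), against 4.13% of all windows on the same scale. At the highest origin, beside *TPI1*, the midpoint held 176 RPM and 176 RPM in the *pol1-1A* libraries, against 258 RPM and 279 RPM in the wild type libraries. At the origin beside *XKS1* it held 92.0 RPM and 106 RPM in the *pol1-1A* libraries, against 168 RPM and 175 RPM in the wild type libraries.

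The trough was also deeper relative to the peaks of the same library, a ratio that does not depend on the scaling to mapped reads. The midpoint held a median of 10.7% and 11.4% of the peak height in the *pol1-1A* libraries, against 12.4% and 12.3% in the wild type libraries. The strain means were 11.1 ± 0.484% and 12.3 ± 0.0953% (SD, n = 2 each), a difference of -1.29 percentage points that was larger than the spread within either strain (exact permutation test, two-sided, p = 0.33, the smallest possible). At 61 of 148 origins (41.2%) both *pol1-1A* ratios were below both wild type ratios, and at 11 (7.43%) both were above. Limma called 0 of 148 origins (0%) for this ratio, with 0 at an unadjusted p under 0.05, and with the replicate block 0, with 2, both of them higher in *pol1-1A*. Without replicate 1 of *pol1-1A* it called 1 origin, also higher in *pol1-1A*. The ratio was measured after the profiles had been seen, and it kept its sign without each library in turn, at -1.63 to -0.944 percentage points. In the *mrc1-AQ cdc45-2A* background the same ratio was 46.1% and 41.1% in the triple mutant and 54.9% and 50.9% in the double mutant. At the later times the replicates of *pol1-1A* and wild type differed in sign. At 20 minutes the ratio was 15.6% and 23.5% in *pol1-1A*, against 11.4% and 23.99% in the wild type, and at 40 minutes 29.9% and 36.9% in *pol1-1A*, against 26.3% and 37.6% in the wild type.

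**Figure D2:**
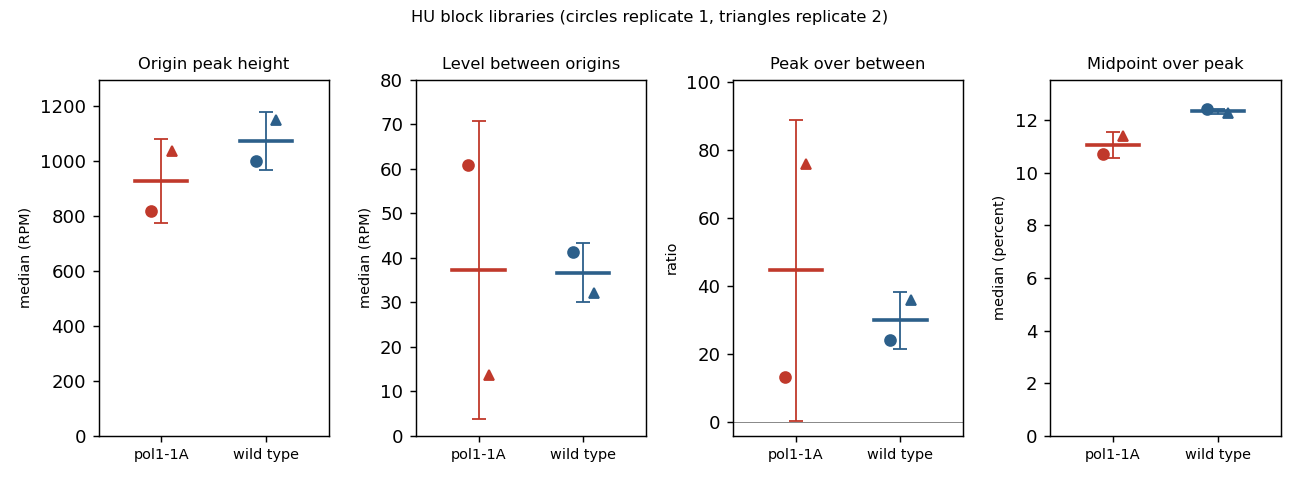
Values of the 4 HU block libraries, *pol1-1A* (red) left of wild type (blue), with circles for replicate 1, triangles for replicate 2, bars for the mean and whiskers for the SD (n = 2 each). From left to right the panels show the median origin peak height (RPM), the median level between origins (RPM), their ratio, and the midpoint signal as a percentage of peak height. Only in the last panel are both *pol1-1A* libraries on one side of both wild type libraries.

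Between origins the replicates went in opposite directions, and the spread between the *pol1-1A* replicates exceeded the difference between the strains. The level was taken from 3974 windows (67.0% of 5933) whose centres lay more than 10 kb from every peak. It was 60.9 RPM and 13.6 RPM in the *pol1-1A* libraries, against 41.3 RPM and 32.0 RPM in the wild type libraries. The *pol1-1A* level was 1.47-fold that of the wild type in replicate 1 and 0.425-fold in replicate 2. The means were 37.3 ± 33.5 RPM in *pol1-1A* and 36.7 ± 6.60 RPM in the wild type (SD, n = 2 each; exact permutation test, two-sided, p = 1). Of the windows between origins, 3490 (87.8%) were higher in *pol1-1A* in replicate 1 and lower in replicate 2. The median window between origins held 267 and 76 reads in the *pol1-1A* libraries and 123 and 231 reads in the wild type libraries. The part of counting error in these differences was not tested. The mean difference of -0.31 became 0.73 without replicate 2 of *pol1-1A* and -1.35 without replicate 1. Per 1000000 reads inside the windows, the level was 69.6 and 19.2 in the *pol1-1A* libraries, against 48.1 and 37.6 in the wild type libraries.

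The contrast between peak and surroundings followed the level between origins. The ratio of median peak height to median level between origins was 13.4 and 76.0 in the *pol1-1A* libraries, against 24.1 and 35.9 in the wild type libraries. The most contrasted library and the least contrasted library of the 4 were both *pol1-1A* (exact permutation test, two-sided, p = 1). Windows within 5 kb of an origin, 12.2% of all windows, held 40.5% and 61.9% of the reads in windows in the *pol1-1A* libraries, against 50.9% and 58.5% in the wild type libraries. Windows between origins held 31.4% and 10.9% in the *pol1-1A* libraries, against 22.6% and 16.3% in the wild type libraries. Windows more than 10 times the mean were 0% and 1.47% of all windows in the *pol1-1A* libraries, against 0.303% and 1.20% in the wild type libraries.

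The difference between the strains varied with the distance from an origin. In windows within 2 kb of a midpoint the median difference was -0.37 in replicate 1 and -0.20 in replicate 2, and from 2 to 4 kb it was -0.29 and -0.16. From 4 to 6 kb the replicates were nearly alike, at -0.14 and -0.10. From 6 to 8 kb they parted, at 0.06 and -0.13, and the gap widened outwards to 0.60 and -1.12 from 20 to 30 kb. Beyond 50 kb the differences were 0.41 and -1.19. Scaled to the reads inside the windows, replicate 1 kept its signs, while replicate 2 was above 0 near origins (0.06 within 2 kb, 0.11 from 2 to 4 kb, 0.17 from 4 to 6 kb) and stayed below 0 farther out (-0.88 from 20 to 30 kb). The replicates then differed in sign both near origins and far from them, and the shape with distance was the same, since this scaling shifts each library by about 1 constant. In replicate 1 the signal outside the peaks also fell off slowly in both strains, from 10 to 15 kb still standing at 141 RPM in *pol1-1A* and 103 RPM in the wild type, against 46.1 RPM and 32.9 RPM beyond 50 kb. In replicate 2 it stood at 27.1 RPM in *pol1-1A* and 42.8 RPM in the wild type from 10 to 15 kb, against 12.4 RPM and 31.6 RPM beyond 50 kb.

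**Figure D3:**
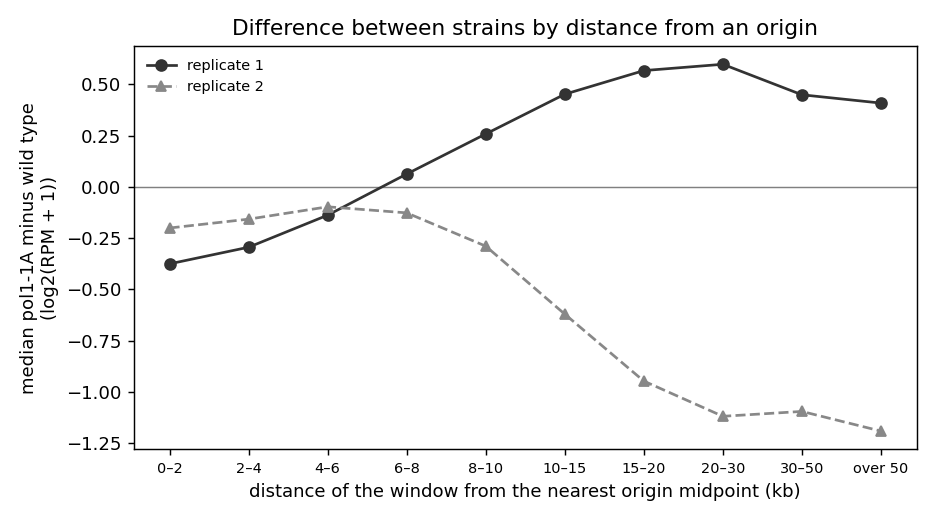
Median difference in log2(RPM + 1) between *pol1-1A* and wild type (vertical axis) in windows binned by distance from the nearest origin midpoint in kb (horizontal axis, bins of unequal width), for replicate 1 (circles) and replicate 2 (triangles). In this scaling to mapped reads both replicates were below 0 out to 6 kb, where scaling to the reads inside the windows puts replicate 2 above 0, and beyond 8 kb replicate 1 was above 0 and replicate 2 below it.

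The same pattern was found on every chromosome. The median peak height was lower in *pol1-1A* in both replicates on 16 of 16 chromosomes. In replicate 1 the difference lay between -0.39 on chromosome XII and -0.19 on chromosome XV, and in replicate 2 between -0.24 on chromosome VIII and -0.11 on chromosome XV. These directions hold for the scaling to mapped reads only, since with scaling to the reads inside the windows the height was lower in replicate 1 and higher in replicate 2 on 16 of 16. The level between origins was higher in *pol1-1A* in replicate 1 on 16 of 16 chromosomes, from 0.46 on chromosome IX to 0.75 on chromosome VI. It was lower in replicate 2 on 16 of 16, from -1.34 on chromosome III to -0.96 on chromosome IX. On chromosome III the level was 53.1 RPM and 10.6 RPM in the *pol1-1A* libraries, against 38.2 RPM and 28.3 RPM in the wild type libraries. On chromosome VI, which had the fewest origins (3), it was 44.2 RPM and 10.9 RPM in the *pol1-1A* libraries, against 25.9 RPM and 24.4 RPM in the wild type libraries.

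**Figure D4:**
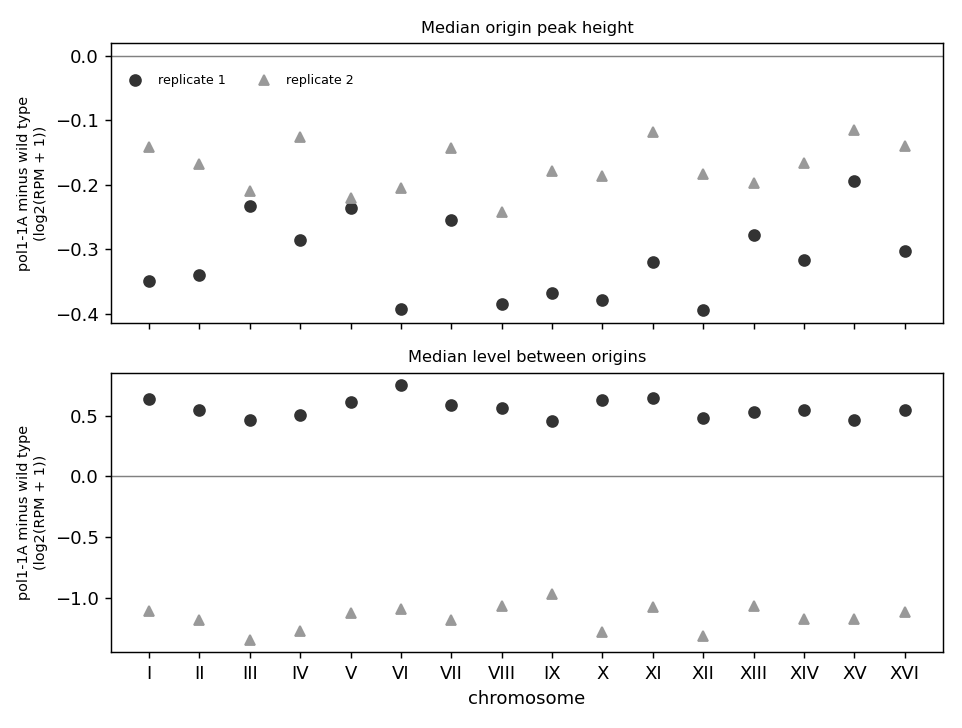
Difference in log2(RPM + 1) between *pol1-1A* and wild type on each of 16 chromosomes, for the median origin peak height (top) and the median level between origins (bottom), in replicate 1 (circles) and replicate 2 (triangles). In this scaling to mapped reads heights lie below 0 in both replicates on every chromosome (scaled to the reads inside the windows, replicate 2 lies above 0 on every chromosome), while the level between origins lies above 0 in replicate 1 and below 0 in replicate 2 on every chromosome.

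How the signal was divided among chromosomes differed little between the strains. The mean signal of a chromosome was tested with limma, which called 0 of 16 chromosomes (0%), with 0 at an unadjusted p under 0.05, and edgeR called 0, with 0 at an unadjusted p under 0.05. With the replicate block 0 were called, with 8 at an unadjusted p under 0.05. Without replicate 1 of *pol1-1A*, 14 were called, all lower in *pol1-1A*. As shares of the reads inside the windows, 4 chromosomes were higher in *pol1-1A* in both replicates and 2 lower in both. Chromosome XVI had the largest mean rise, with 7.12% and 6.89% of the reads in the *pol1-1A* libraries, against 6.85% and 6.59% in the wild type libraries. Both *pol1-1A* libraries were above both wild type libraries there. It was the 1 chromosome called when the replicate block and the scaling to reads inside the windows were applied together, a setting chosen after seeing the data (log2 difference 0.06, limma adjusted p = 0.036). Chromosome XII had the largest mean fall in share, with 9.69% and 9.38% in the *pol1-1A* libraries, against 9.82% and 9.85% in the wild type libraries.

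Of the 39 windows at an unadjusted p under 0.05, 34 were lower in *pol1-1A* and 5 higher. The 2 with the lowest p among those higher in both replicates lay far from the peaks of either strain. The window from 216001 to 218000 on chromosome VI, over *MET10*, a sulphite reductase gene, and *SMC2*, a condensin gene, held 133 RPM and 129 RPM in the *pol1-1A* libraries, against 93.8 RPM and 38.8 RPM in the wild type libraries. The window from 158001 to 160000 on chromosome XIII, over *HUG1* and *SML1*, which encode inhibitors of ribonucleotide reductase, held 75.8 RPM and 92.0 RPM in the *pol1-1A* libraries, against 49.4 RPM and 31.5 RPM in the wild type libraries. In both windows the *pol1-1A* libraries were above the wild type libraries, by 1.10 (SE 0.32) and 1.06 (SE 0.36) on the log2 scale, and neither passed the adjustment (limma adjusted p = 1 for each, and 0.31 for each with the replicate block). The 2 with the lowest p among those lower in both replicates were at 1044001 to 1046000 on chromosome VII, in the RNA exonuclease gene *RNH70*, and at 1502001 to 1504000 on chromosome IV, between *HSP31* and *FIT1*. The first held 16.2 RPM and 8.43 RPM in the *pol1-1A* libraries, against 23.5 RPM and 34.7 RPM in the wild type libraries (log2 difference -1.22, SE 0.50, limma adjusted p = 1).

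The windows higher in *pol1-1A* shared a feature outside the libraries compared. The double mutant libraries entered the same fit, so they had a part in the p by which these windows were chosen. All 5 lay 12 to 53.4 kb from the nearest peak of the 4 libraries, and in all 5 the *mrc1-AQ cdc45-2A* double mutant had a high signal in the HU block. The lowest of these was 391 RPM and the highest 826 RPM. The windows from 214001 to 216000 and from 216001 to 218000 on chromosome VI adjoin, so the 5 are not all separate places. Both double mutant libraries reached 391 RPM in 712 of 5933 windows and in 51 of 3974 windows between origins (1.28%). The double mutant held 826 RPM and 809 RPM in the window over *SMC2*, and 656 RPM and 547 RPM in that over *HUG1* and *SML1*.

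Places with a double mutant peak but none called in *pol1-1A* or wild type were therefore examined as a set. The set was chosen after these values had been seen. Of 407 peaks in the double mutant HU block libraries, 125 lay more than 10 kb from every peak called in the *pol1-1A* and wild type libraries. The median signal at these sites was 48.4 RPM and 42.7 RPM in the *pol1-1A* libraries, against 46.4 RPM and 40.1 RPM in the wild type libraries. It was 329 RPM and 283 RPM in the double mutant and 316 RPM and 289 RPM in the triple mutant, so the peak was not particular to the double mutant. The flanks, 6 to 10 kb away on both sides, held 84.8 RPM and 17.7 RPM in the *pol1-1A* libraries, against 57.1 RPM and 37.1 RPM in the wild type libraries. The site itself thus differed by 0.06 and 0.09 between the strains, while its flanks differed by 0.56 and -1.02.

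In replicate 2 of *pol1-1A* the sites stood out from their flanks. There 84.8% of the 125 sites were over 1.5 times their flanks, against 14.4% in wild type replicate 2, and in replicate 1 the share was 3.2% in *pol1-1A* and 3.2% in the wild type. The median excess of site over flanks was -31.2 RPM and 23.5 RPM in the *pol1-1A* libraries, against -10.6 RPM and 3.12 RPM in the wild type libraries. In the double mutant it was 271 RPM and 248 RPM. The signal was higher in *pol1-1A* in both replicates at 49 of 125 sites (39.2%), against 3.79% of all windows, and lower in both at 12. Scaled to the reads inside the windows it was higher in both at 59 sites (47.2%), against 10.8% of all windows. Because the flanks moved with the level between origins of each library, the part of that level in these counts was not tested.

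**Figure D5:**
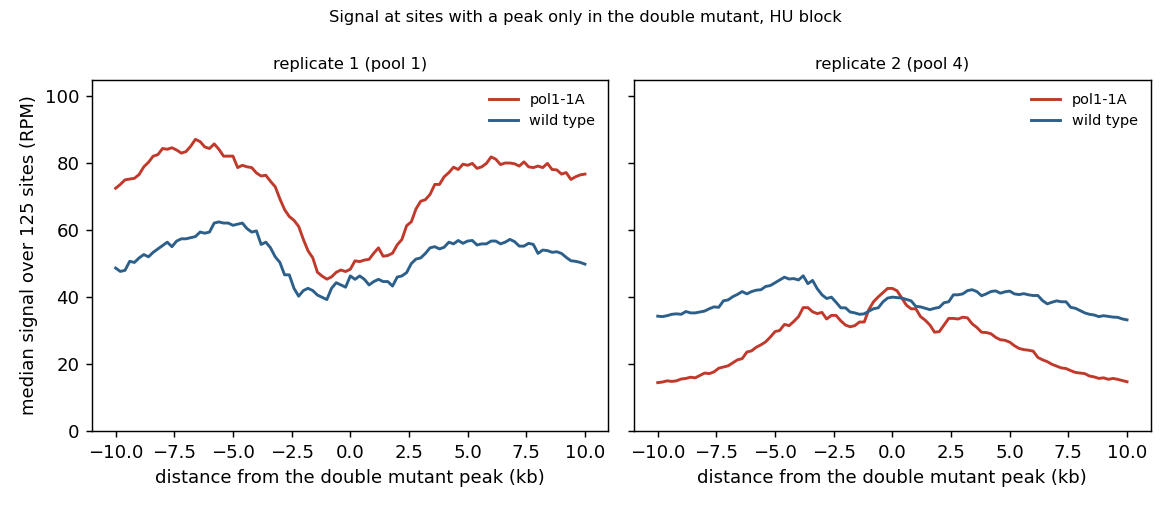
Median signal (RPM) over 125 sites with a double mutant peak but no peak in *pol1-1A* or wild type, against distance from the site (kb), in replicate 1 (left) and replicate 2 (right), *pol1-1A* in red and wild type in blue. In replicate 1 both strains dip at the site (48.4 RPM in *pol1-1A* and 46.4 RPM in the wild type), and in replicate 2 *pol1-1A* rises there to 42.7 RPM above flanks of 17.7 RPM.

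The later samples of the same strains repeated the lower signal at origins but not the low level between origins of replicate 2. At 20 minutes after removal of HU the median of the highest window at the same origins was 532 RPM and 425 RPM in *pol1-1A*, against 634 RPM and 492 RPM in the wild type. At 40 minutes it was 185 RPM and 224 RPM in *pol1-1A*, against 214 RPM and 254 RPM in the wild type. By then windows within 5 kb of an origin, 12.2% of all windows, held little more or less than that share of the reads in windows. The share was 9.82% and 13.0% in *pol1-1A*, against 10.8% and 13.9% in the wild type. The highest window was lower in *pol1-1A* in all 6 pools, by 0.15 to 0.29, in the scaling to mapped reads, and in 5 of 6 when scaled to the reads inside the windows, the exception being replicate 2 of the HU block. The time points of 1 replicate may not be independent. The level between origins was higher in *pol1-1A* in 5 of 6 pools, by 0.08 to 0.77, the exception being replicate 2 of the HU block. Its windows were set by distance from the HU block peaks and kept for the later times. In the wild type they held 41.3 RPM and 32.0 RPM in the HU block, and 90.3 RPM and 70.2 RPM at 40 minutes. The later values are thus only the signal in those windows. Limma called 0 of 5933 windows for a difference between the HU block and 20 minutes in the effect of *pol1-1A*, with 59 at an unadjusted p under 0.05, and 0 for 40 minutes, with 20.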

How the data were processed

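TrAEL-seq reads were trimmed with Trim Galore 0.6.5 and mapped with Bowtie2 2.4.1 to R64, per the labels. The authors removed duplicates, truncated each read to 1 nucleotide in SeqMonk, filtered repeated regions and deposited signal, the reads of both strands per 1000000 mapped reads (RPM), in 60303 windows of 2000 bp starting every 200 bp. In the 24 libraries of 4 strains and 3 time points, 100% of deposited values were whole multiples of 1 read (tolerance 0.01 of a read), which gave back the counts. The 6 spike-in libraries entered no test. Depth was 2974768 to 7214255 mapped reads in the 4 libraries compared.

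Peaks were called with scipy 1.17.1 on the mean of the 4 libraries, smoothed over 15 windows (Savitzky-Golay, order 2), with a prominence of 1 mean window value and 2 kb between peaks. Pairs 4 to 9 kb apart gave 148 origins, of which 22 share a peak with another. Published origin positions were not used here. Log2(RPM + 1) was fitted with limma 3.58.1 in 1 model of 24 libraries and 12 groups, with Benjamini-Hochberg adjustment over all windows, origins or chromosomes and a threshold of 0.05. For chromosomes the log2 mean signal was fitted with no constant added, and the log2 ratio of midpoint to peak with a smaller one. Library values were compared by exact permutation tests, whose smallest p is 0.33. EdgeR 4.0.16 on the recovered reads, other scalings, pseudocounts, origin sets and left-out libraries were alternatives. The 2 replicates are called biological in the study. The fit was also run on simulated counts that held no pool or replicate effect. That run cannot show how the fit behaves with replicates as unlike as those of *pol1-1A*.

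The labels say that the libraries of 1 replicate number at 1 time point were pooled. The deviations of replicate 1 from replicate 2 correlated between the strains (r = 0.709 over windows), and the pool was used as the replicate block.

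Origins were named as the 5 highest, the 3 largest rises and falls among those that changed alike in both replicates, and the 2 that the study displayed; windows as the 2 with the lowest p in each direction among those that changed alike in both replicates; chromosomes as the extremes. Genes come from the RefSeq table of R64. The origins and sites, tests and lists were chosen with earlier results of these data known.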

Additional observations from a re-analysis of the deposited data

Results flagged for a closer look

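The peak height at origins moved in opposite directions when *pol1-1A* was present in the 2 backgrounds. In the HU block it was lower in *pol1-1A* than in the wild type by 0.29 and 0.15 (log2, replicates 1 and 2), while in the triple mutant it was higher than in the double mutant by 0.17 and 0.01. The mean differences were 0.09 in the double mutant background and -0.22 in the wild type background, a difference of 0.31. The difference between the medians was not tested. Origin by origin, limma's test of this difference called 0 of 148 origins, with 13 at an unadjusted p under 0.05. At all 3 time points the height was higher in the triple than in the double mutant in 6 of 6 pools, and lower in *pol1-1A* than in the wild type in 6 of 6, in the scaling to mapped reads. At 40 minutes, windows within 5 kb of an origin, 12.2% of all windows, held 9.82% to 14.2% of the reads in windows. The height at that time is thus only the highest window near an origin. Scaled to the reads inside the windows the height was higher in the triple mutant in 6 of 6 pools and lower in *pol1-1A* in 5 of 6, the exception being replicate 2 of the HU block. The level between origins was lower in the triple than in the double mutant in 6 of 6 pools. At every time point its windows were those set by the HU block peaks of *pol1-1A* and wild type.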

How the results depend on the processing

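With the pool as a replicate block, limma called 0 windows, 0 origins and 0 chromosomes, as it did without it. The block changed no call except together with scaling to the reads inside the windows, a setting added after seeing the data, which called 1 chromosome. The mean difference in origin peak height, -0.22, became -0.10 when scaled to the reads inside the windows and 0.017 after quantile normalisation, so that its direction depends on the scaling. Over all windows the median change was -0.21 in RPM, -0.096 scaled to the reads inside the windows, 0.08 with edgeR's TMM and 0 after quantile normalisation. Leaving out 1 library at a time gave 0 to 2397 windows called, 0 origins called for height, 0 to 1 for the ratio of midpoint to peak, and 0 to 14 chromosomes. The largest counts all came without replicate 1 of *pol1-1A*, a fit in which the lone library is assumed to vary as the other groups do. The same left-out fits gave a height difference of -0.39 to -0.049, a median window change of -1.06 to 0.56, a level between origins of -1.35 to 0.73, a ratio of peak to between of -1.13 to 1.37 (all log2) and an origin share of -14.2 to 7.21 percentage points. Origin sets from either strain, other peak prominences, origins that share no peak, other pseudocounts, a low-value filter and shifted windows kept the sign of the height difference and of the midpoint ratio, wherever each applied, and called 0 windows and 0 origins. Annotated origin positions as an alternative were not run. With 2 libraries a strain, no permutation test could pass the threshold.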
